A study of Homo sapiens with 54 samples.

Results

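The 15 LNCaP xenograft tumors that had become resistant to enzalutamide (ENZR) were compared with the 9 tumors that grew in intact mice (PRE-CX). These 24 tumors, chosen by their sample labels, are among the 54 tumors of a progression study in which every tumor came from its own mouse. LNCaP is a line of human prostate cancer cells that responds to androgen, here of clone FGC, and it was injected under the skin of young male NOD-SCID mice, which lack working T and B cells. PRE-CX mice had mock surgery at a tumor volume of about 200 mm3 and no drug, and their tumors were taken at 1000 mm3. ENZR mice were castrated at the same starting volume and received enzalutamide by gavage at 10 mg/kg on 5 days per week from the time serum prostate-specific antigen (PSA) began to rise again. Collection followed a renewed rise of PSA under the drug, up to where it stood when dosing began, or growth to 1000 mm3. Castration, the drug and a longer time in the mouse therefore all separate ENZR from PRE-CX and cannot be told apart in this comparison. For that reason the same values are also given for tumors resistant to castration alone (CRPC, n = 10) and for tumors responding to enzalutamide at the PSA nadir (ENZS, n = 12).

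Androgens raise the transcription of genes such as KLK3, the gene of PSA, in luminal prostate cells and hold down others. Castration removes testicular androgen, and enzalutamide blocks the response of the cells to the androgen that remains. Prostate cancers commonly regrow under both, with the androgen program restored, with glucocorticoid signaling in its place, or with loss of the luminal character of the cells.

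Human transcript levels were measured as TPM, which are corrected for transcript length and scaled to a total of 1000000. Since transcripts of the mouse host had been quantified together with the human ones and then left out, the human TPM of a tumor summed to 82.7% to 97.5% of 1000000 in PRE-CX and to 12.1% to 94.9% in ENZR. The tumor of ENZR mouse 87 alone was under 30% among these 24, and every tumor was rescaled to 1000000 before comparison. On log2(TPM + 1), 1797 of 17593 genes tested were called between ENZR and PRE-CX with limma, at an adjusted p under 0.05 and a log2 difference of at least 1. Of all genes tested, 7.38% were called higher (1299 genes) and 2.83% were called lower (498 genes) in ENZR, which makes 10.2% in either direction. Of the calls 72.3% were therefore upward, against 54.4% with the values as deposited and 46% with each tumor centered on its median, so the balance of rises and falls depended on the scaling. The median of all genes tested was 0.25 in rescaled values, 0.074 as deposited and -0.0086 after centering, and log2 differences below are read against 0.25. As deposited, 796 of 17131 genes tested were called higher and 668 lower, and after centering 702 and 825 of 17593. Without mouse 87, 1350 genes were called higher and 480 lower. Counts of list members in these settings are read against these numbers. In bulk tumors, fewer cells of a type and less RNA per cell cannot be told apart.

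The luminal marker KRT8 was high in both groups, and the defining basal and neuroendocrine markers named here were low. KRT8, a luminal keratin, ranged from 282 to 704 TPM in PRE-CX (median 439) and from 250 to 437 TPM in ENZR (median 346). The basal markers KRT5 and TP63 stayed below 1 TPM in every one of the 24 tumors, while KRT14 reached 10.5 TPM in ENZR mouse 104 with a median of 0.338 TPM. CHGA, the gene of the secretory granule protein chromogranin A, was listed at 0 in 13 of 15 ENZR tumors and did not exceed 0.494 TPM in the others. Other members of the neuroendocrine list were present in both groups, as ENO2, the neuronal enolase, with 15.5 to 241 TPM in PRE-CX (median 68.7) and 29.2 to 279 TPM in ENZR (median 88.4), and DLL3, a Notch ligand, with medians of 3.11 and 2.07 TPM.

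The 15 named genes with the largest rise were led by enzymes and cell surface proteins that were low in intact tumors. DDC, the decarboxylase that makes dopamine and serotonin (chr7:50458442-50565405 on GRCh38), had 1.68 to 60.3 TPM in PRE-CX (median 3.88) and 22.5 to 1368 TPM in ENZR (median 468). Its log2 difference was 5.83 (SE 0.50, limma adjusted p = 1.18e-13), and 14 of 15 ENZR tumors exceeded every PRE-CX tumor. AOC1, which oxidizes histamine and putrescine (chr7:150852120-150861504), rose by 5.67 (SE 0.61, adjusted p = 1.1e-10), from a median of 0.337 to 77.6 TPM. The opioid receptor gene OPRK1 rose by 5.07 (SE 0.43), from a median of 0.936 to 93.3 TPM, and its groups did not overlap. All 15 ENZR tumors lay above the whole PRE-CX range in 1.92% of the genes tested, and all 15 lay below it in 0.784%.

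ATP1B1, the beta subunit of the sodium pump (chr1:169106690-169132719), reached the highest level among these 15 genes. It had 2.71 to 83.6 TPM in PRE-CX (median 17.9) and 80.1 to 2180 TPM in ENZR (median 990), which is 4.99 higher in log2 units (SE 0.42, limma adjusted p = 9.23e-14). FXYD3, a regulator of the pump, fell, from a median of 341 to 140 TPM (log2 difference -1.14, SE 0.16).

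Several genes of cell contact and of nerve cells were in the same set. LRRN1, a leucine-rich membrane protein of neurons (chr3:3799431-3849834), showed 4.15 to 13.9 TPM in PRE-CX (median 5.8) against 36.9 to 450 TPM in ENZR (median 225), without overlap (log2 difference 4.62, SE 0.30, limma adjusted p = 1.08e-17). AMIGO2, an adhesion protein of the same broad class, went from a median of 0.256 to 25.6 TPM, again without overlap. The protocadherin gene PCDH11X rose by 4.95 and its copy on the Y chromosome, PCDH11Y, by 4.27, but these copies are so alike that the division of reads between them is uncertain. STXBP5L, a syntaxin-binding protein, exceeded the PRE-CX maximum of 19.6 TPM in 14 of 15 ENZR tumors, with a median of 68.6 TPM.

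Genes of the matrix and of the cell skeleton made up much of the remainder. COL5A2, a fibrillar collagen chain (chr2:189031898-189441111), had a median of 0.825 TPM in PRE-CX and 52.3 TPM in ENZR (log2 difference 4.39, SE 0.54, limma adjusted p = 2.71e-09). The neighboring collagen gene COL3A1 (chr2:188974373-189012746) went from 0.214 to 3.1 TPM in PRE-CX (median 0.841) to 3.19 to 60 TPM in ENZR (median 29), so that the groups just failed to touch. SYNE1, which links the nucleus to the cytoskeleton, had medians of 0.407 and 27 TPM and reached 340 TPM in mouse 98. CP, the gene of the copper-carrying plasma protein ceruloplasmin, spanned 0.832 to 318 TPM in ENZR (median 17.7), with the maximum in mouse 87, against at most 0.747 TPM in PRE-CX. GASK1B and AMOTL1, the remaining members, rose by 3.69 and 3.49. Of all genes called higher, 171 carried clone names and were only counted.

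**Figure D1:**
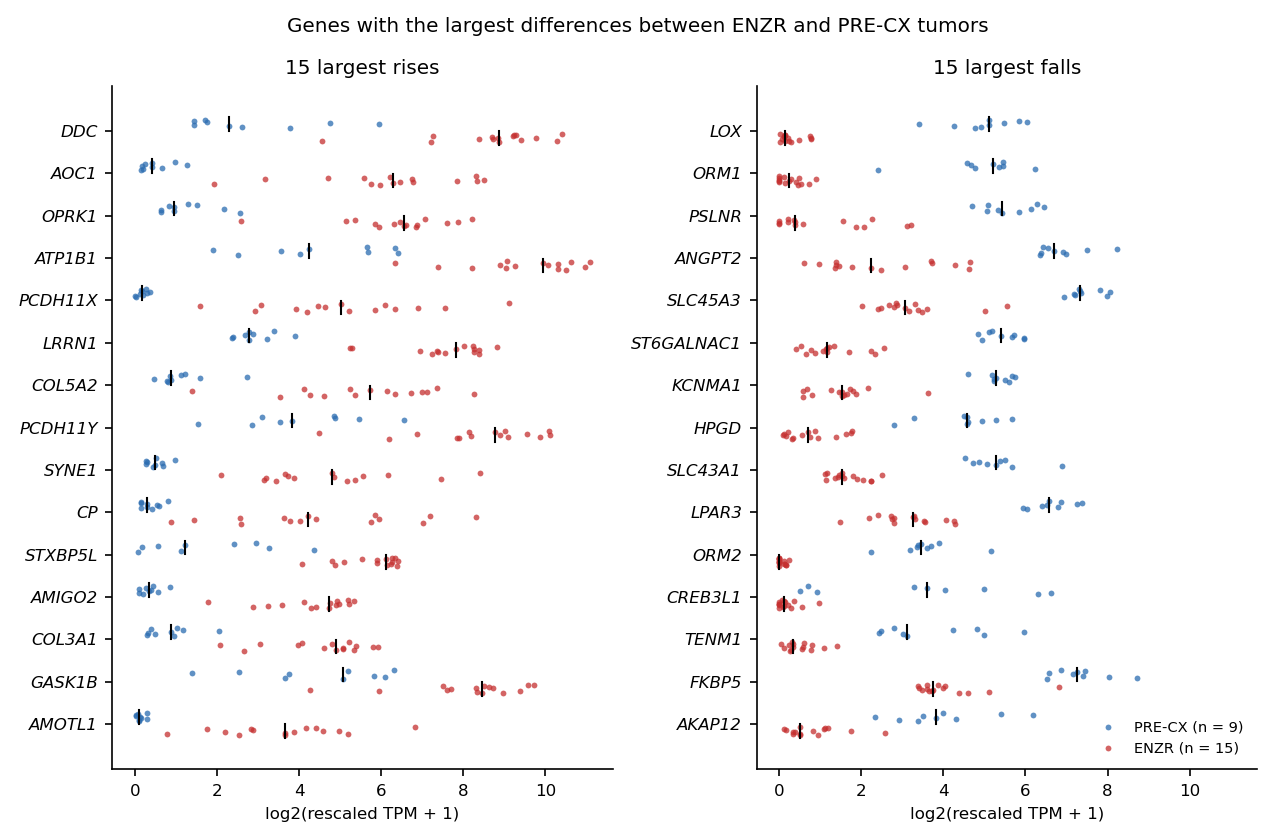
Rescaled TPM on a log2(TPM + 1) axis for the 15 named genes with the largest rise (left) and the largest fall (right). Each point is 1 tumor, blue for PRE-CX (n = 9) and red for ENZR (n = 15), with a black line at the group median. Most rising genes spread widely among the ENZR tumors, as DDC does from 22.5 to 1368 TPM, while several falling genes such as ORM2 and LOX gather near 0 in every ENZR tumor.

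Most of the 15 genes with the largest fall were near 0 TPM in the resistant tumors. LOX, which cross-links collagen and elastin (chr5:122063195-122078259), had 9.66 to 64.1 TPM in PRE-CX (median 33.3) and 0.0127 to 0.713 TPM in ENZR (median 0.106), a difference of -4.71 in log2 units (SE 0.23, limma adjusted p = 2.15e-23). ORM1, the gene of the acute-phase plasma protein orosomucoid (chr9:114323098-114326479), went from a median of 35.8 to 0.184 TPM, and its near-identical neighbor ORM2 was listed at 0 in the median ENZR tumor. Reads of ORM1 and ORM2 may have been divided between these copies in an uncertain way, but both fell, by 4.62 and by 3.49 on the log2 scale. ANGPT2, a vessel-destabilizing growth factor, had 81 to 297 TPM in PRE-CX (median 103) and 0.506 to 24.2 TPM in ENZR (median 3.69).

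Transporters and enzymes stood beside them. SLC45A3, a sugar transporter of the luminal prostate also called prostein (chr1:205657851-205680509), had 121 to 268 TPM in PRE-CX (median 161) and 3.03 to 45.7 TPM in ENZR (median 7.29), with a difference of -4.23 in log2 units (SE 0.40, limma adjusted p = 2.06e-12). HPGD, which inactivates prostaglandins (chr4:174490175-174522893), went from a median of 23 to 0.626 TPM. The sialyltransferase ST6GALNAC1 fell by 4.15, from a median of 41.6 to 1.23 TPM, and the amino acid transporter SLC43A1 fell by 3.66, from 37.9 to 1.89 TPM. The potassium channel KCNMA1, the lysophosphatidic acid receptor LPAR3, the non-coding RNA PSLNR and the teneurin TENM1 were likewise lower in each ENZR tumor than in any PRE-CX tumor. CREB3L1 overlapped, with 0.418 to 97.9 TPM in PRE-CX and at most 0.967 TPM in ENZR, as did FKBP5 and AKAP12, each in 1 ENZR tumor. Of all genes called lower, 43 had clone names.

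A list of 30 genes known to be induced by androgen fell broadly, with 22 called lower, 1 called higher and a median log2 difference of -1.60 against 0.25 for all genes tested. As the background, 2.83% of all genes were called lower. The mean log2(TPM + 1) of the list was 6.02 to 7.13 in PRE-CX and 4.21 to 5.66 in ENZR, so that every ENZR tumor was below the PRE-CX range. FKBP5, an androgen-induced co-chaperone (chr6:35573590-35728583), had 91.8 to 423 TPM in PRE-CX (median 152) and 9.39 to 112 TPM in ENZR (median 12.4). Mouse 75 supplied that maximum, and the next highest ENZR tumor, mouse 104, had 33.7 TPM. TMPRSS2, the membrane serine protease, went from a median of 452 to 121 TPM (log2 difference -1.93, SE 0.28, limma adjusted p = 1.03e-07).

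The kallikrein genes were less uniform. KLK2 (chr19:50873439-50880567) had 190 to 1307 TPM in PRE-CX (median 465) and 5.68 to 677 TPM in ENZR (median 53.1), a difference of -2.52 in log2 units (SE 0.49, limma adjusted p = 2.69e-05). KLK3 (chr19:50854915-50860764) had 2129 to 6770 TPM in PRE-CX (median 4679) and 92 to 6704 TPM in ENZR (median 1231), a log2 shift of -1.80 (SE 0.45, adjusted p = 0.000655). In 11 of 15 ENZR tumors KLK3 was under the whole PRE-CX range, while mice 104, 94, 75 and 21 carried 6704, 5120, 4991 and 2643 TPM. Since PSA, the product of KLK3, was used to time collection, its level is not independent of how the tumors were chosen. The third kallikrein of the cluster, KLK4, had a log2 difference of 0.16 and was not called.

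STEAP2, a metal reductase, was the 1 member of the androgen-induced list that rose (log2 difference 1.20, 211 to 791 TPM in ENZR). That call ended with values as deposited (0.95) and after centering (0.94). Further members called lower were STEAP4, MAF, ADAM7, TRPM8, GNMT and PMEPA1, with log2 differences of -3.11, -2.97, -2.46, -2.45, -2.14 and -1.83.

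A list of 16 androgen-repressed genes moved the other way, with 11 of 15 members tested called higher, 1 lower and a median of 1.29. The background share called higher was 7.38%, and with values as deposited or centered 8 members were called higher. DDC and OPRK1, which are among the 15 largest rises above, are members. Like the other lists, this one was chosen with earlier results of these data known, so its counts describe and do not test. FOLH1, the gene of prostate-specific membrane antigen, rose from a median of 666 to 1760 TPM, and 13 of 15 ENZR tumors exceeded every PRE-CX tumor. BCL2, which blocks apoptosis, went from a median of 0.794 to 3.42 TPM with a difference of 1.11, a call that ended as deposited (0.93) and centered (0.85).

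The glucuronidation enzymes UGT2B15 and UGT2B17, which inactivate androgens, split the resistant tumors. UGT2B17 (chr4:68537173-68576322) had 1.11 to 87.7 TPM in PRE-CX (median 4.14) and 7.13 to 547 TPM in ENZR (median 145), with 9 of 15 ENZR tumors above the PRE-CX range. UGT2B15 had 2.09 to 178 TPM in ENZR (median 70.1) against a median of 2.73 TPM, with 9 tumors above. In mice 33, 72 and 87 both genes stayed under 9 TPM. Their relative UGT2B28 was called lower, with medians of 2.06 and 0.341 TPM, but not with array weights or with the human share as covariate. The enzymes are close copies, so their separate values are uncertain.

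**Figure D2:**
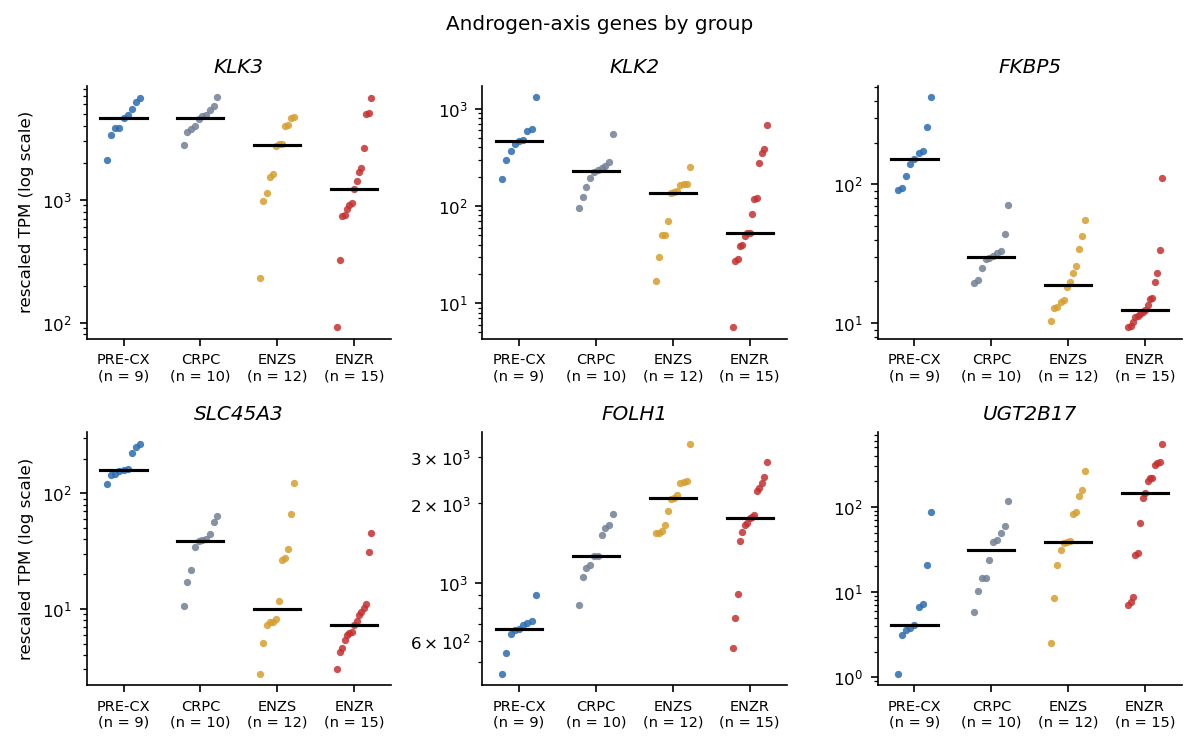
Rescaled TPM, on log axes, of 6 genes of the androgen axis in each PRE-CX, CRPC, ENZS and ENZR tumor, with a black line at the group median. KLK3 has a median of 4679 TPM in PRE-CX and 4690 TPM in CRPC but 1231 TPM in ENZR, and FOLH1 rises from a median of 666 TPM in PRE-CX to 1760 TPM in ENZR. Serum PSA, the product of KLK3, was used to time collection in CRPC, ENZS and ENZR.

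Of 10 genes tested among the steroid receptors and glucocorticoid response genes, 3 were called higher (30%, against 7.38% of all genes). NR3C1 and PGR were among them, and none was called lower. NR3C1, the glucocorticoid receptor (chr5:143277931-143435512), had 0.107 to 1.43 TPM in PRE-CX (median 0.418) and 0.322 to 15.3 TPM in ENZR (median 4.32), with a difference of 1.55 in log2 units (SE 0.29, limma adjusted p = 1.15e-05). Its highest values were 15.3 TPM in mouse 103 and 9.79 TPM in mouse 105, while mice 33, 75 and 104 had 0.497, 0.569 and 0.322 TPM. The glucocorticoid-induced kinase SGK1 had medians of 6.07 and 8.15 TPM and was not called (log2 difference 0.27, adjusted p = 0.461). In the androgen synthesis list, AKR1C1, AKR1C2 and AKR1C3 were called higher among 9 genes tested (33.3%, against 7.38% of all genes). AKR1C3, which converts androstenedione to testosterone, went from at most 0.778 TPM in PRE-CX to 0.857 to 13.3 TPM in ENZR. CYP17A1, HSD3B1 and SRD5A2 did not reach the expression filter, and SRD5A1 had medians of 16.6 and 19.5 TPM (log2 difference 0.035, adjusted p = 0.867; -0.17 as deposited).

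Genes of cell division were lower in the resistant tumors. All 43 genes of the mitosis list were called lower, against 2.83% of all genes, with a median of -1.95, and 42 were without mouse 87. CDK1, the kinase that drives entry into mitosis (chr10:60778331-60794852), had 132 to 224 TPM in PRE-CX (median 177) and 10.5 to 157 TPM in ENZR (median 26.1), a difference of -2.26 in log2 units (SE 0.33, limma adjusted p = 1.85e-07). CCNB1, its cyclin partner, went from 110 to 174 TPM (median 153) to 9.06 to 87.2 TPM (median 41.2) without overlap. PLK1, a mitotic kinase, and UBE2C, which supplies ubiquitin to the anaphase-promoting complex, also separated fully, with ENZR medians of 9.01 and 13.4 TPM against 31.1 and 69.5 TPM.

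Within the resistant group these levels varied widely. The mean log2(TPM + 1) of the mitosis list ran from 1.26 in mouse 98 to 4.52 in mouse 104 and 4.44 in mouse 75, and the PRE-CX tumors lay at 4.41 to 5.32. Mice 104 and 75 were thus the ENZR tumors within the PRE-CX range, and the other 13 were below it. The same mice had the highest means of the androgen-induced list in ENZR, at 5.66 and 5.61, and CDK1 values of 126 and 157 TPM. MKI67, the proliferation antigen Ki-67, had 5.04 to 25.8 TPM in PRE-CX (median 13.7) and 1.12 to 13.1 TPM in ENZR (median 3.1).

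DNA replication genes fell less evenly, with 22 of 42 called lower (52.4%, against 2.83% of all genes), none higher and a median of -1.05. RRM2, the regulated subunit of ribonucleotide reductase (chr2:10122568-10211010), had 75 to 137 TPM in PRE-CX (median 111) and 0.419 to 110 TPM in ENZR (median 14.9), with a difference of -2.81 in log2 units (SE 0.50, limma adjusted p = 4.88e-06). MCM2, a subunit of the replicative helicase, had medians of 35.1 and 13.9 TPM and missed the size threshold at -0.96, though not as deposited (-1.15) or centered (-1.22). CDC45, TYMS and CDC6, which serve the firing of origins and the supply of thymidylate, had differences of -2.16, -2.16 and -2.02. The replication protein A genes RPA1 and RPA2 and the polymerase gene POLE were not called, at 0.23, 0.13 and 0.048.

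**Figure D3:**
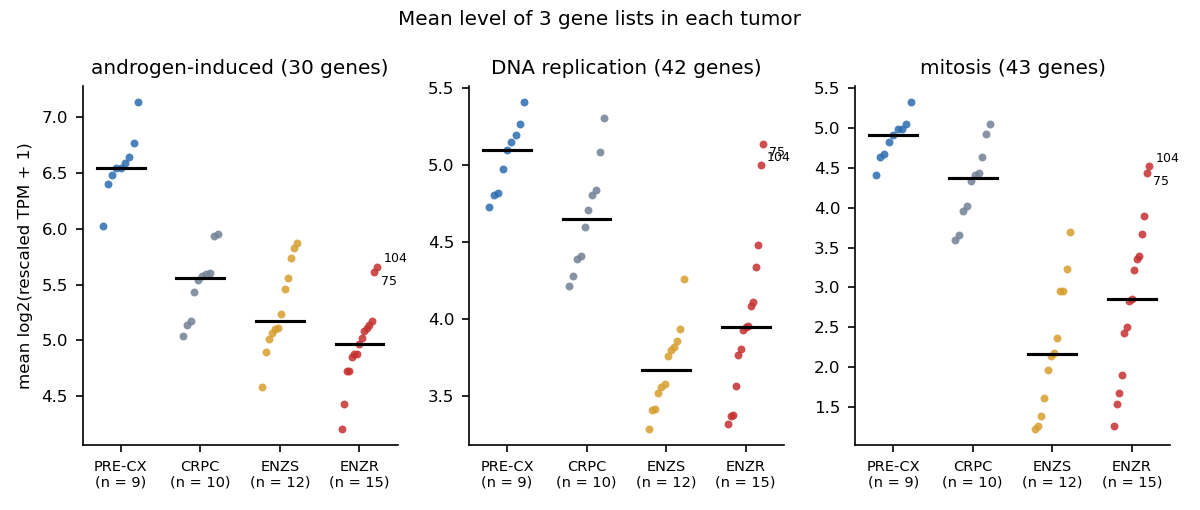
Mean log2(rescaled TPM + 1) over the androgen-induced, DNA replication and mitosis lists in each tumor, by group, with a black line at the group median and ENZR mice 75 and 104 numbered. Mitosis means are 4.41 to 5.32 in PRE-CX and 1.26 to 4.52 in ENZR, and mice 75 and 104 are the highest ENZR tumors in all 3 panels.

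Related cell cycle lists followed in part. Of 20 homologous recombination genes, 10 were called lower (50%, against 2.83% of all genes) and 1 higher, with a median of -1.07. BRCA1, which directs the repair of broken strands, went from a median of 14.1 to 3.76 TPM, and the largest fall was that of RAD54L (-1.95). BARD1, the partner of BRCA1 in its ubiquitin ligase, rose instead, from 17.9 to 59.5 TPM in PRE-CX (median 25.5) to 20.9 to 122 TPM in ENZR (median 75.3). In the G1 and RB list, E2F1, E2F2 and CDK2 were the 3 of 19 called lower (15.8%, against 2.83% of all genes). E2F1, an activator of S phase genes, had 15.7 to 27.1 TPM in PRE-CX (median 19.4) and 1.24 to 31.2 TPM in ENZR (median 4.99), with mice 104 and 75 at 31.2 and 29.6 TPM, above every intact tumor. CCND1 (log2 difference 0.017, adjusted p = 0.936; -0.22 as deposited) and CDKN1A (0.19, adjusted p = 0.645; -0.053 as deposited) were not called. UHRF1, which guides maintenance DNA methylation, was the 1 of 12 Polycomb and methylation genes called lower (8.33%, against 2.83% of all genes). Its difference was -1.98, and EZH2 had -0.76.

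Promoter windows of the genes called lower were searched on both strands for short motifs known for these gene groups, in RefSeq sequence of build GRCh38.p14 from 250 bases before to 50 after the first listed start. The CHR element, spelled TTTGAA or alternatively TTCGAA, through which the DREAM complex and MuvB proteins act on mitotic genes, was in 27 of 36 matched mitosis genes (75.0%), against 16.6% of all 27305 promoters and 11.0% of those of tested genes. The CCAAT box was in 77.8% of them against 35.7% of all. An E2F motif, spelled TTCCCGC, otherwise TTCGCGC, otherwise TTGCCGC or otherwise TTGGCGC, was in 11 of 18 matched replication genes (61.1%), against 13.1% of all promoters and 20.4% of tested genes. The hexamer AGAACA, bound by steroid receptors, was in 3 of 18 matched androgen-induced genes (16.7%), against 14.9% of all promoters and 9.17% of tested genes. These shares describe letters in a window, and CCAAT read on the opposite strand can overlap TTGGCGC in 4 letters.

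For the mitosis list the windows of CENPA, the centromeric histone (chr2:26785806-26786085, plus strand), and CDCA8, a subunit of the chromosomal passenger complex (chr1:37692266-37692545, plus strand), are shown as the matching members with the lowest adjusted p, printed 5′ to 3′ to 30 bases after the start. Capitals mark the CHR letters, which begin 18 and 23 bases before the start.
CENPA: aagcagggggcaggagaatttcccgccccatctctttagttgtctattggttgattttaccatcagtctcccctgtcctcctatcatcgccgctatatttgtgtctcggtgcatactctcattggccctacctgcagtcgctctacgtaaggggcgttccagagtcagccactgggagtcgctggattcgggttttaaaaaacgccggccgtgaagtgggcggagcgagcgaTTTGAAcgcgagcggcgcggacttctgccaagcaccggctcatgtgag
CDCA8: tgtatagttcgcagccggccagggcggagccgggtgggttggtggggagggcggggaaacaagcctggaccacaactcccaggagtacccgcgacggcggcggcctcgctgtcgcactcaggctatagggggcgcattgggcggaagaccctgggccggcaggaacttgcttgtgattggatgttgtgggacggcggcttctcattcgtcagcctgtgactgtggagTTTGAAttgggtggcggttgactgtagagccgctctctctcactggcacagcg

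For DNA replication, GINS3 (chr16:58392221-58392500, plus strand) and GINS2 (chr16:85688925-85689204, minus strand) encode subunits of the GINS complex of the replication fork, and capitals mark the E2F letters, here on the opposite strand, 5 and 31 bases before the start. GINS3 and GINS2 had log2 differences of -1.10 and -1.57.
GINS3: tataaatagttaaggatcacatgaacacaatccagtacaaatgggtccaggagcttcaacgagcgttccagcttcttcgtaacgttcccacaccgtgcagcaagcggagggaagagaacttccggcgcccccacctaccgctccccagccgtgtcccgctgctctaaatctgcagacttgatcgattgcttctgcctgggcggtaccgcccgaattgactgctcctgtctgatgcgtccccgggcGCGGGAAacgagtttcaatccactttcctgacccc
GINS2: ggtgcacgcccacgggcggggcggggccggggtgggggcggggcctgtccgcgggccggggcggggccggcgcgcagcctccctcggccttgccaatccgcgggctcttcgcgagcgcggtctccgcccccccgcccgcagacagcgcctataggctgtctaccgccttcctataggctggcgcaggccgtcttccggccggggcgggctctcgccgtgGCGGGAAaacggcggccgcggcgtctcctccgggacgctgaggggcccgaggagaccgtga

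For the androgen-induced list, FKBP5 (chr6:35728554-35728833, minus strand) and PMEPA1 (chr20:57711443-57711722, minus strand), a negative regulator of TGF-beta signaling, are shown because they hold the hexamer AGAACA, in capitals. Unlike the cell cycle motifs it lay at or after the start in both.
FKBP5: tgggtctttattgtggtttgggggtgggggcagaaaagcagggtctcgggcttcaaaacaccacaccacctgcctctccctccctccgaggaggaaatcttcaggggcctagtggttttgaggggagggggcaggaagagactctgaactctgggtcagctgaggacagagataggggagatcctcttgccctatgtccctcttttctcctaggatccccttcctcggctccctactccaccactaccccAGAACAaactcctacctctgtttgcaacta
PMEPA1: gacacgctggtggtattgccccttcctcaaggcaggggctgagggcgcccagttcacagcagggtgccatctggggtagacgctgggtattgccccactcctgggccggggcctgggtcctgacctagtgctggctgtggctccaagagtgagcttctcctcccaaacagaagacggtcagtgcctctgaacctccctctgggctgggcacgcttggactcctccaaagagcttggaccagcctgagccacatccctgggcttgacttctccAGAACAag

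Genes of cell identity included falls but no called rise. Of 12 luminal and lineage genes tested, 2 were called lower (16.7%, against 2.83% of all genes), KRT19 among them, and none higher, with a median of -0.032. FOXA1, the pioneer factor of luminal chromatin, had 207 to 312 TPM in PRE-CX (median 233) and 181 to 423 TPM in ENZR (median 301), a difference of 0.25 that turned to -0.0063 after centering. HOXB13, the prostate homeobox factor, had medians of 129 and 171 TPM (log2 difference 0.37, limma adjusted p = 0.0848). KRT19 went from a median of 13.7 to 2.68 TPM. ETV1, the ETS factor that is rearranged in LNCaP, was not called, but in ENZR it ran from 4.13 to 339 TPM.

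Mesenchymal genes went both ways. FN1, the gene of fibronectin (chr2:215360865-215436068), rose from 8.4 to 54.8 TPM in PRE-CX (median 24.2) to 63.4 to 500 TPM in ENZR (median 176), without overlap (log2 difference 3.02, SE 0.40, limma adjusted p = 1.46e-08). VIM, the intermediate filament vimentin, had 13.4 to 55.2 TPM in PRE-CX and 8.25 to 1086 TPM in ENZR (median 110), with the maximum in mouse 100, and its call (1.67) ended with values as deposited (1.42, adjusted p = 0.0616). TWIST1 and SNAI2, transcription factors of the same program, were called lower, TWIST1 from a median of 6.65 to 1.28 TPM. The neuroendocrine list had 3 of 17 members tested and none called. SYP, the gene of synaptophysin, had 0.636 to 1.46 TPM in PRE-CX and 1.36 to 3.13 TPM in ENZR. Its difference of 0.51 (limma adjusted p = 1.05e-05) missed the size threshold, though 13 of 15 ENZR tumors exceeded every PRE-CX tumor.

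Genes of stroma, vessels and blood bear on RNA from host cells, and 8 of 24 passed the expression filter. COL3A1, LUM, DCN and CD68 were called higher and the vessel gene VWF lower (medians of 4.9 and 1.03 TPM), against 7.38% and 2.83% of all genes. The summed level of the whole list was 21 to 33.9 TPM in PRE-CX (median 26.9) and 20.3 to 126 TPM in ENZR (median 89.1). LUM and DCN, proteoglycan genes of fibroblasts, peaked in mouse 100 at 49.5 and 21.6 TPM, and the macrophage gene CD68 peaked in mouse 87 at 45.6 TPM, against at most 2.82 TPM in PRE-CX. Other members were present in both groups, with PRE-CX and ENZR medians of 7.13 and 8.65 TPM for COL1A1, 8.2 and 15.3 TPM for TAGLN and 2.03 and 4.75 TPM for ACTA2. The myeloid marker ITGAM reached 15.4 TPM in mouse 87, against at most 0.682 TPM in PRE-CX. Several markers of host cells were at or near 0 in both groups and so did not separate them. POSTN was at 0 in all 24 tumors, and HBA1 in all 15 ENZR and 8 of 9 PRE-CX tumors. PTPRC was at most 0.0103 TPM in PRE-CX and 0.0923 TPM in ENZR, and PECAM1 at most 0.0363 and 0.0318 TPM. COL3A1 kept its difference without mouse 87 (3.67) and with the human share as covariate (3.57).

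Antigen presentation genes rose in part. Of 16 MHC class I presentation genes, 6 were called higher (37.5%, against 7.38% of all genes), among them HLA-B, HLA-C, HLA-E, HLA-F and ERAP1. As deposited 3 were called higher, after centering 2 and without mouse 87 4. HLA-B (chr6:31353875-31357179) had 62.5 to 99.7 TPM in PRE-CX (median 71.6) and 109 to 1315 TPM in ENZR (median 253), without overlap (log2 difference 1.80, SE 0.28, limma adjusted p = 5.05e-07). B2M, the shared light chain, was not called (-0.15, adjusted p = 0.586), with 1397 to 2764 TPM in PRE-CX and 992 to 7273 TPM in ENZR. The highest values of HLA-B and B2M in ENZR, 1315 and 7273 TPM, were both from mouse 87, the tumor with 12.1% human TPM. The part of host RNA in the values of the other tumors was not tested. HLA genes are also close copies of each other.

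**Figure D4:**
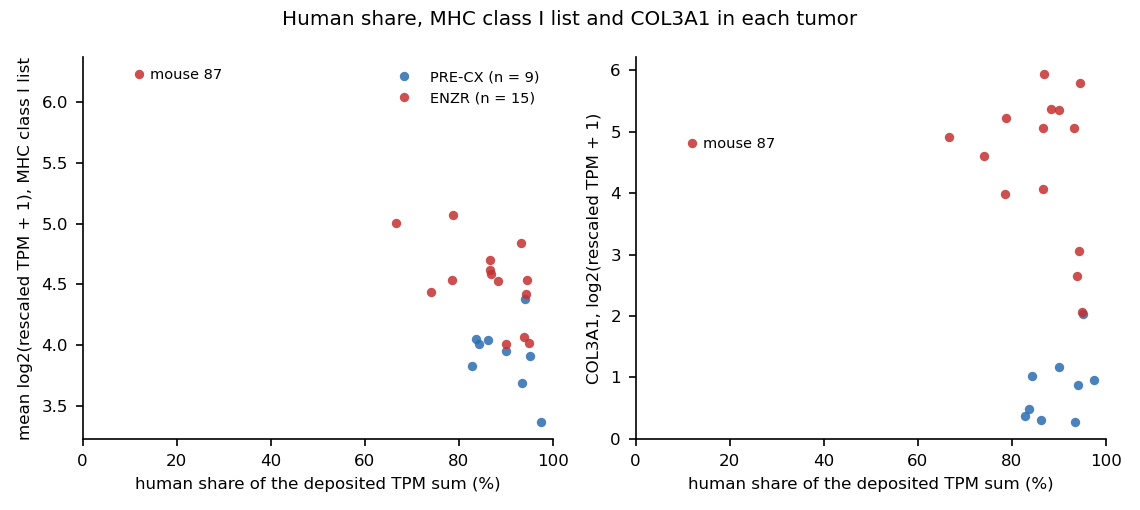
Human share of the deposited TPM sum (%) against the mean log2(rescaled TPM + 1) of the 16 MHC class I genes (left) and log2(rescaled TPM + 1) of COL3A1 (right), 1 point per PRE-CX (blue) and ENZR (red) tumor. ENZR mouse 87 stands alone at 12.1% and has the highest MHC class I mean, 6.23, whereas its COL3A1 lies among the other ENZR tumors.

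Interferon-stimulated genes were higher in a subset. MX1, IFIT2, IFITM1, DDX58, IFI6 and IFIT3 were called, 6 of 27 tested (22.2%, against 7.38% of all genes called higher). The list median was 0.57, and 3 members were called higher as deposited and 2 after centering. MX1, an antiviral GTPase, had 1.19 to 3.45 TPM in PRE-CX (median 1.95) and 2.95 to 16.1 TPM in ENZR (median 8.48), with 14 of 15 tumors above the PRE-CX range. ISG15, a ubiquitin-like member, had medians of 53.1 and 51.2 TPM and no call (0.024, limma adjusted p = 0.898; -0.21 as deposited).

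Growth factor receptors and their ligands went both ways. IGF1R, the receptor of insulin-like growth factor (chr15:98648539-98964530), had 2.18 to 26.4 TPM in PRE-CX (median 15) and 0.437 to 3.54 TPM in ENZR (median 1.21), a difference of -2.54 in log2 units (SE 0.28, limma adjusted p = 1.48e-10). ERBB2 rose from a median of 74.2 to 166 TPM, with a difference of 1.19 that missed the size threshold as deposited (0.94) and centered (0.93). Of the ligands, NRG3 rose from at most 1.74 TPM to 2.07 to 23.9 TPM without overlap, HBEGF was called higher, and NRG4 fell from a median of 3.27 to 1.59 TPM. Of the 10 members tested, 3 were called higher in rescaled values (30%, against 7.38% of all genes) and 1 as deposited or centered. ERBB3, the partner receptor of ERBB2, had medians of 109 and 102 TPM. In the Wnt list RNF43 and FZD7 were called higher of 19 tested (10.5%, against 7.38% of all genes), and none were as deposited or after centering. AXIN2, the usual feedback target of the pathway, had a difference of 0.50 (limma adjusted p = 0.000208), under the size threshold.

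Lipid genes lay below the median of all genes, with medians of -0.28 for the fatty acid list and -0.24 for the cholesterol list against 0.25, and included falls but no called rise. ELOVL7, which elongates saturated fatty acids (chr5:60751791-60844269), had 24.6 to 115 TPM in PRE-CX (median 67) and 2.03 to 12.2 TPM in ENZR (median 6.31), a difference of -3.12 in log2 units (SE 0.28, limma adjusted p = 6.01e-13). ACSL3, ELOVL5 and FADS1 were also called lower, 4 of 14 in all (28.6%, against 2.83% of all genes), while FASN, the synthase itself, had -0.65 and SCD -0.11. In the cholesterol list 2 of 23 were called lower (8.7%, against 2.83% of all genes), with 4 as deposited and 4 after centering. HMGCS1 and SQLE had -0.016 and 0.21. STARD4, a sterol carrier, went from a median of 16.9 to 4.3 TPM. Of 27 glycolysis and hypoxia genes, LDHA was the 1 called lower (3.7%, against 2.83% of all genes). It had 939 to 3315 TPM in PRE-CX (median 1557) and 308 to 2140 TPM in ENZR (median 706). That call ended with the human share as covariate (-0.97), and 5 genes of the list were called lower as deposited. The glucose transporter SLC2A1 had 0.0079 (-0.22 as deposited).

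Among polyamine genes AOC1 was the 1 of 13 called (7.69%, against 7.38% of all genes called higher). ODC1, the entry enzyme, had medians of 303 and 176 TPM and a difference of -0.95. That difference passed the size threshold as deposited (-1.19) and centered (-1.21), and 4 members were called lower in each of these settings against 0 in rescaled values.

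Protein synthesis genes shifted by small, shared amounts. Of 79 cytosolic ribosomal protein genes, 78 had an adjusted limma p under 0.05 for a lower level, with a median of -0.63. The share of all genes at that adjusted p was not counted. With the size threshold 2 were called lower (2.53%, against 2.83% of all genes). Differences of the 79 genes ran from -1.07 to -0.22, and 15 were called as deposited and after centering. Many of these genes have processed copies in the genome, which makes single values uncertain. MYC, which drives ribosome production, had 65 to 146 TPM in PRE-CX (median 114) and 10.7 to 133 TPM in ENZR (median 61.8). Its difference of -1.08 (limma adjusted p = 0.00194) missed the size threshold without mouse 87 (-0.94), with array weights (-0.96) and with the human share as covariate (-0.89). NCL, the nucleolar protein nucleolin, had -0.32.

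Mitochondrial and protein quality lists held few calls, beside 7.38% of all genes called higher and 2.83% called lower. Of 77 mitochondrial ribosomal protein genes, MRPS6 was called higher, from 29.6 to 47.7 TPM to 76.1 to 161 TPM without overlap, and MRPS18A was called lower, with medians of 50 and 24.5 TPM, although not without mouse 87 (-0.99). Of these 77 genes, 41 were lower and 5 higher at an adjusted p under 0.05, with a list median of -0.22 against 0.25 for all genes. None of 59 nuclear respiratory chain genes, 13 genes of the mitochondrial genome or 31 proteasome genes was called in limma. At an adjusted p under 0.05 were 17 lower and 4 higher nuclear genes, 3 higher mitochondrial genes and 10 lower proteasome genes. The 20 endoplasmic reticulum folding genes had a median of 0.35 and no call, with 14 at an adjusted p under 0.05 for a higher level. Their median was 0.10 as deposited and 0.086 after centering. Counts by adjusted p alone, here and for the ribosomal proteins, stand without the share of all genes, which was not counted. HSPA5, the chaperone BiP, had 139 to 258 TPM in PRE-CX and 191 to 488 TPM in ENZR, a difference of 0.57, and XBP1 had 0.38. In the ATF4 list CHAC1 and PSAT1 were called higher of 21 (9.52%, against 7.38% of all genes). ASNS, asparagine synthetase, had 0.52. The call of CHAC1 (1.22) ended after centering (0.96), and that of PSAT1 ended there and as deposited.

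Smaller lists held at most 2 calls each, beside 7.38% of all genes called higher and 2.83% called lower. The shares called were 5.56% in each direction for p53 targets. They were 28.6% higher for surface targets and 20% higher for prostate non-coding RNAs. Of the 18 p53 targets, SESN1, a stress-induced inhibitor of mTOR signaling, rose from a median of 51.4 to 225 TPM, GDF15 fell from 945 to 322 TPM, and MDM2 had -0.046. Among 7 surface targets MUC1 joined FOLH1, but only FOLH1 was called as deposited or after centering, while STEAP1 had 0.35. No metallothionein was called of 6 tested, and MT2A, a zinc-binding member, ranged from 81.1 to 950 TPM in ENZR (-0.06; 0.073 without mouse 87). Of 10 prostate non-coding RNAs, PCGEM1 and MALAT1 were called higher, and neither was as deposited or after centering. PCGEM1 had 0.485 to 73.6 TPM in ENZR (median 12.1) against a median of 3.67 TPM, and its call (1.22, limma adjusted p = 0.0484) was lost in 7 of 10 alternatives. PCA3, the urinary marker RNA, had -0.45.

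**Figure D5:**
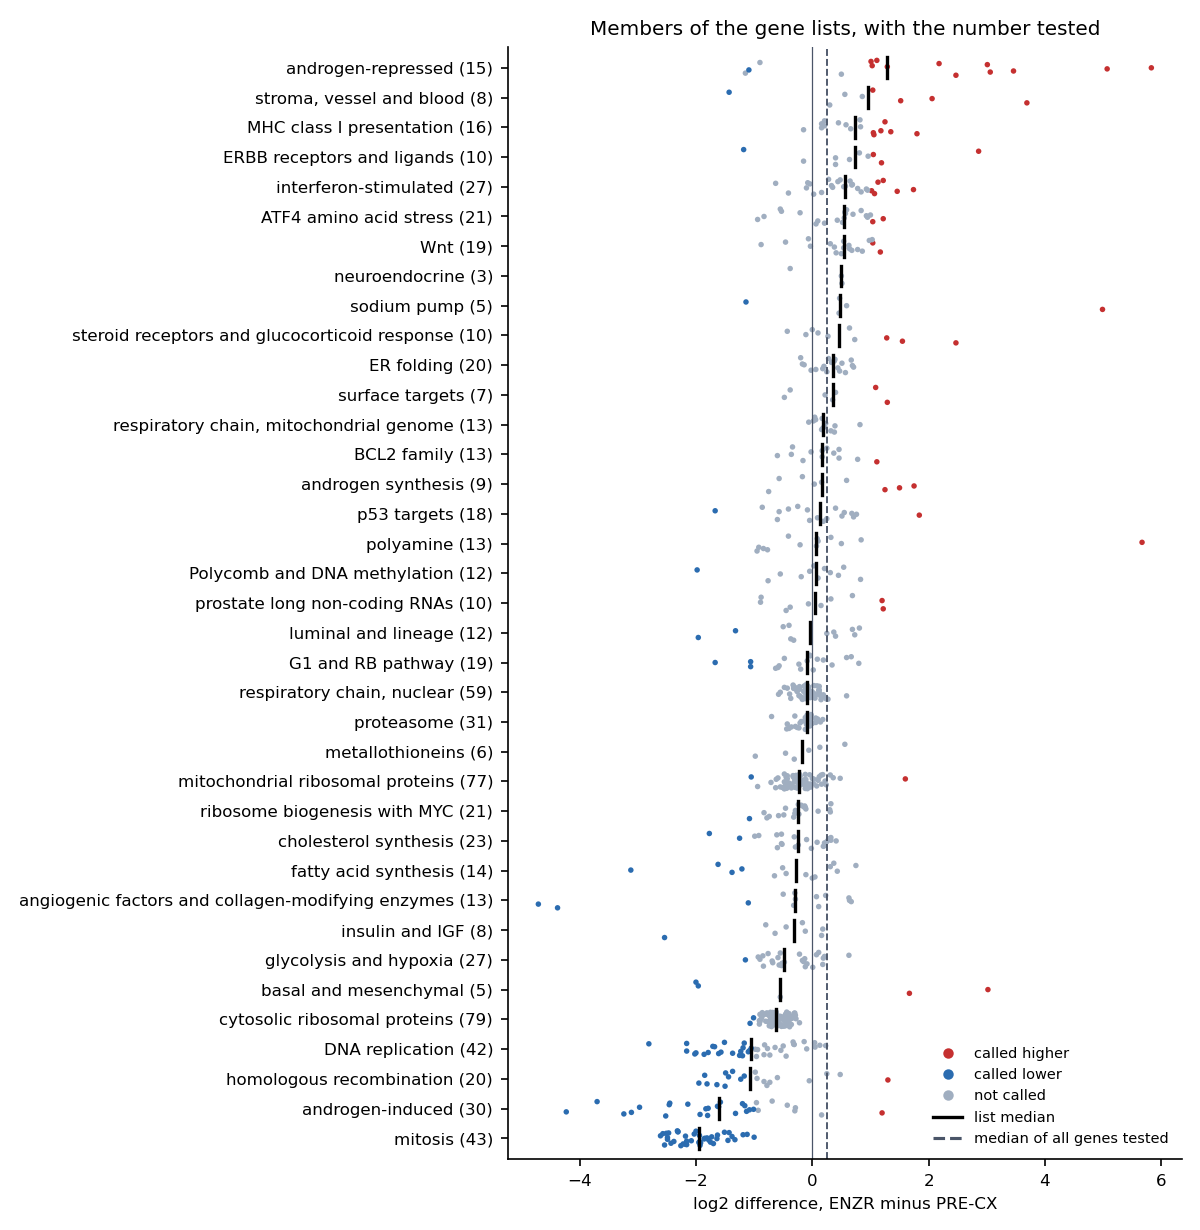
Log2 difference between ENZR and PRE-CX for the members tested of 37 gene lists, with the number tested in brackets. Each point is 1 gene, red if called higher, blue if called lower and gray if not called, black bars are list medians and the dashed line is the median of all genes tested, 0.25. The mitosis and androgen-induced lists lie lowest, at medians of -1.95 and -1.60, and the androgen-repressed list highest, at 1.29.

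Whether the resistant tumors differed from tumors resistant to castration alone was tested in the same limma fit. Between ENZR and CRPC, 0.665% of genes were called higher (117 genes) and 0.819% lower (144 genes), which makes 1.48% in either direction. Those called higher were 29 as deposited and 45 after centering. Cell division genes were lower in ENZR than in CRPC. Of the mitosis list 36 of 43 genes were called lower in ENZR than in CRPC (median -1.41), and of the DNA replication list 11 of 42 (median -0.58). CDK1 had 59.7 to 267 TPM in CRPC (median 113), a log2 difference of -1.58 (adjusted p = 0.00083). Of the androgen-induced list KLK2, KLK3, SLC45A3 and PTGER4 were called lower than in CRPC. KLK3 had 2825 to 6828 TPM in CRPC (median 4690), with a difference of -1.85 (SE 0.44, adjusted p = 0.00231), and relative to the shared PRE-CX tumors CRPC differed by 0.049 and ENZR by -1.80.

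Other genes were higher in ENZR than in CRPC. NR3C1 had 0.221 to 1.14 TPM in CRPC (median 0.626), a difference of 1.41 (SE 0.28, limma adjusted p = 0.000625), and SYNE1 and CP differed by 2.67 and 2.86. HLA-B differed by 1.20, COL3A1 by 1.82, FN1 by 1.41 and DDC by 1.34. In contrast ATP1B1 (0.83, adjusted p = 0.12) and OPRK1 (0.50, adjusted p = 0.365) were not called. Of the 15 largest falls SLC45A3 and LPAR3 were called lower than in CRPC, and for LOX, HPGD and ANGPT2 the differences were -0.32, 0.014 and -0.13. LOX was already at a median of 0.32 TPM in CRPC.

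Between ENZR and ENZS, tumors on the same drug, limma called 0 of 17593 genes, with 1752 at an unadjusted p under 0.05, and 1 gene was called as deposited and 1 with a pseudocount of 0.1. Medians over the mitosis and DNA replication lists were 0.65 and 0.29 higher in ENZR. CDK1 had 9.55 to 60.2 TPM in ENZS (median 20.6) and RRM2 0.641 to 45.6 TPM (median 9.18), against ENZR maxima of 157 and 110 TPM. UGT2B17 had a median of 39 TPM in ENZS and 145 TPM in ENZR (log2 difference 0.97, adjusted p = 0.612). A p that misses the threshold does not show that these groups are alike. The mean log2(TPM + 1) of the mitosis list ran from 1.26 to 4.52 in ENZR and from 1.23 to 3.69 in ENZS. Whether the spread within these groups bears on the lack of calls was not tested.

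The standard deviation of log2(TPM + 1) among tumors was larger in ENZR than in PRE-CX for 67.6% of the genes tested. Mouse 87 was included here and in the correlations that follow, and neither was computed without it. The pseudocount also narrows the spread of genes below 1 TPM, so a gene low in PRE-CX alone can appear less spread there. Pearson correlations between pairs of tumors over log2(TPM + 1) were 0.951 to 0.985 in PRE-CX and 0.9 to 0.98 in ENZR. For 6 genes the mean distance of a tumor from its group's median was compared by a two-sided exact permutation test over the tumors, adjusted over the 6. It was 0.22 in PRE-CX and 0.90 in ENZR for NR3C1, on the log2 scale (exact p = 0.00883, adjusted p = 0.053), and 0.38 and 1.15 for KLK3 (exact p = 0.0399, adjusted p = 0.12). Neither passed the threshold of 0.05 after adjustment, though NR3C1 did with values as deposited (exact permutation, adjusted p = 0.0241). Most PRE-CX values of NR3C1 were below the pseudocount of 1 TPM, and with a pseudocount of 0.1 its mean distances were 0.58 and 1.24 (exact p = 0.103, adjusted p = 0.206). MKI67 (0.48 and 0.72), TMPRSS2 (0.36 and 0.32), FKBP5 (0.50 and 0.53) and ERBB2 (0.29 and 0.32) had adjusted exact p of 0.482, 0.941, 0.941 and 0.941.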

How the data were processed

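RNA of LNCaP xenograft tumors was sequenced as stranded, polyadenylated libraries and in paired ends, per the labels. The authors trimmed reads with Trim Galore 0.6.5 after FastQC 0.11.9, aligned them with STAR 2.7.2b to a combined human GRCh38 and mouse reference, quantified them with RSEM 1.3.3 and kept human genes. Tool versions are from the submitters' processing notes. The authors deposited TPM of 60642 gene symbols. TPM keep no read depth, so no counting interval is given and precision rests on the spread between tumors.

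Groups came from the sample labels, which give no batch. Each tumor was rescaled to 1000000, and genes with at least 1 TPM in at least 8 tumors were kept (17593 genes). A pseudocount of 1 TPM was added, so log2 differences understate changes of low genes. All 54 tumors entered 1 fit of 5 group means in limma 3.58.1 (R 4.3.3, trend option) and p-values were adjusted after Benjamini-Hochberg over all genes of a comparison. Calls needed both an adjusted p under 0.05 and a log2 difference of 1 or more in size. No pair of tumors within PRE-CX or ENZR was identical. P-values measure the spread between tumors, each from its own mouse.

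Genes were named by rule: the 15 strongest rises and the 15 strongest falls among called genes that averaged 5 TPM or more in the higher group and bore no clone name, the anchor genes of 37 lists with their most raised and most lowered called member, and the 6 genes of the spread test. A few list members, markers and promoters beyond these were named after their values were seen. The members and lists were chosen with earlier results of these data known, and list counts are descriptions without a test. Some genes that the rule names are not reported here, though list counts include them. Gene positions and promoters are from RefSeq (GRCh38.p14), which matched 14687 of the genes tested by symbol. Of the genes called lower, 36 of 43 in the mitosis list, 18 of 22 in DNA replication and 18 of 22 in the androgen-induced list had a promoter entry. Alternatives were the values as deposited, centering each tumor on its median, leaving out tumors with a TPM sum under 300000, a pseudocount of 0.1, no filter, a filter of 5 TPM, only the 2 groups compared, no trend, array weights and the human TPM sum as covariate.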

Additional observations from a re-analysis of the deposited data

Results flagged for a closer look

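Of the 111 named genes, 14 had a PRE-CX tumor that stood apart from the other 8. The measure, on log2(TPM + 1), was its gap to the nearest tumor over the group's range, above Dixon's critical ratio of 0.493 for 9 tumors. Chance gives this in about 1 of 20 genes, and neighboring flags from the same mouse are not independent. Mouse 112 was highest in 6 genes. It had 117 TPM of SLC43A1 (others at most 50.2 TPM), 22.3 TPM of SGK1 (others at most 9.09 TPM), 813 TPM of KRT18 (others at most 496 TPM), 425 TPM of FASN (others at most 168 TPM), 219 TPM of XBP1 (others at most 134 TPM) and 105 TPM of MRPS18A (others at most 62.3 TPM). Mouse 111 was lowest in 4 genes, with 4.32 TPM of ORM1 (others at least 22.9 TPM), 16.1 TPM of CDKN1A (others at least 48.6 TPM), 7.81 TPM of STARD4 (others at least 13.5 TPM) and 18.8 TPM of ISG15 (others at least 42.8 TPM). Mouse 58 was highest in both collagen genes, with 5.66 TPM of COL5A2 (others at most 1.98 TPM) and 3.1 TPM of COL3A1 (others at most 1.24 TPM). KCNMA1 was lowest in mouse 9 at 23.1 TPM (others at least 35.6 TPM), and NR3C1 was highest in mouse 62 at 1.43 TPM (others at most 0.628 TPM). ENZR, with 15 tumors, was not examined in this way.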

How the results depend on the processing

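No paired analysis was possible because no mouse number is shared between groups. Of the 80 named genes called between ENZR and PRE-CX, direction was kept in all 10 alternatives wherever the gene was tested, with 29 losses of the call among 793 comparisons. No filter, a filter of 5 TPM, only the 2 groups and no trend leave the log2 difference of a gene unchanged by construction. Direction could therefore change only in the other alternatives. With a pseudocount of 0.1, 3283 genes were called between ENZR and PRE-CX (2602 higher) and 659 between ENZR and CRPC (436 higher, 223 lower). As deposited, 796 genes were called higher than in PRE-CX and 29 higher than in CRPC. After centering these were 702 and 45, with 825 lower than in PRE-CX. With array weights 207 genes were called higher than in CRPC. Between ENZR and ENZS 1 gene was called as deposited, P3H2, and 1 with a pseudocount of 0.1, FANCA, both named after their values were seen. As deposited the difference in spread was 0.70 for NR3C1, which then passed the threshold (exact permutation, adjusted p = 0.0241, against 0.053), and 0.21 for TMPRSS2 against -0.045. NR3C1 did not pass with a pseudocount of 0.1 (exact permutation, adjusted p = 0.206) or without the low tumors (exact permutation, adjusted p = 0.0844).

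Of genes without a call, some changed sign. As deposited and centered, respectively, the log2 differences were -0.17 and -0.23 for SRD5A1, -0.22 and -0.24 for CCND1, -0.053 and -0.068 for CDKN1A, -0.017 and -0.045 for SQLE, -0.22 and -0.25 for SLC2A1, and -0.21 and -0.24 for ISG15. FOXA1 had -0.0063 after centering. With array weights CCND1 had -0.012, SLC2A1 -0.056, ISG15 -0.033 and MT2A 0.16. Without mouse 87 and the low POST-CX tumor, ISG15 had -0.0055, HMGCS1 0.041 and MT2A 0.073, and with the human share as covariate -0.02, 0.054 and 0.071. The cause of these changes was not tested, beyond the shift of the median of all genes that scaling and centering make by construction. TPM hold no depth, so precision at low levels could not be judged from reads.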
